A study of Homo sapiens with 12 samples.

Results

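The small nuclear and nucleolar RNA genes described here were the identifiers whose symbol starts with RNU, RNVU, RN7SK, SNORA, SNORD or SCARNA and whose mean over the 12 libraries was at least 0.5 CPM, counts scaled to the library total. There were 81 such members among 63152 identifiers in the count table. A further 1852 identifiers with such a symbol had no count in any library and 657 had counts below the level, of 2590 in all. The lowest members were SNORA31B at 0.504 CPM and RNU6-146P at 0.510 CPM, and the highest identifiers left out were RNU1-124P at 0.496 CPM and RNU5A-1 at 0.487 CPM. The members were chosen by this mean level over all libraries, which is given as a description, and the families were picked with earlier results of these data known. For 9 members, none of them tested, the mean fell below the level when 1 of the 4 groups was left out.

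All libraries came from OPM2, an established human multiple myeloma cell line, collected after 2 h of treatment, with 3 libraries labelled as biological replicates in each of 4 groups. One group received JQ1 at 250 nM, an inhibitor of the BET family of chromatin readers. Another received BKM120 at 1 µM, an inhibitor of phosphoinositide 3-kinases. The third received 18DS at 250 nM, a compound known here by its code name, which the series title calls a chimera that inhibits both PI3K and BET proteins. The controls received the DMSO vehicle, and all groups are of 1 cell line at 1 time. Libraries were made with QuantSeq, a 3′ method primed with oligo(dT), so that reads come from places where the primer finds adenines.

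Small nuclear RNAs (snRNAs) form the cores of the spliceosome. U1 pairs with the 5′ splice site, U2 with the branch point, U4 holds U6 until the spliceosome is activated, and U5 holds the exons together; U4atac and U12 serve the minor class of introns and U7 trims histone mRNAs. 7SK RNA holds the elongation kinase P-TEFb in an inactive complex with HEXIM1, from which the kinase is released when transcription is disturbed. Box C/D and box H/ACA small nucleolar RNAs (snoRNAs) guide methylation and pseudouridylation of ribosomal RNA, some take part in cleaving it, and scaRNAs guide the same modifications of snRNAs in Cajal bodies. Most of these RNAs end without a poly(A) tail, so the counts are the signal they gave in a poly(A) assay and not their abundance in the cell.

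The sequences of the members on which the results turn are shown to let their families be seen. They are the transcripts of GENCODE 29 (GRCh38), 5′ to 3′, written as DNA, and capitals mark stretches with a known role. In the U1 sequences, capitals mark bases 3 to 11, which pair with 5′ splice sites, and a match to TTTNTGG, a pattern like the site where the Sm protein ring binds.
RNVU1-24: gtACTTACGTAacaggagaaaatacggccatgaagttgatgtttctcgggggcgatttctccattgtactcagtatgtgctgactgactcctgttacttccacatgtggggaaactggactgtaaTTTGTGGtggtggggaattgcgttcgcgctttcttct
RNU1-1: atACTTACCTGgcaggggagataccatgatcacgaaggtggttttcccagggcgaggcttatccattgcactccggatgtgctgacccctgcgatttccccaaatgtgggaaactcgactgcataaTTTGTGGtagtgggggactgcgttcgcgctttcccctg
RNVU1-24, on the minus strand of chromosome 1, had 162 bases and was 73.3% identical to RNU1-1, the standard U1 on the same chromosome and strand, over an alignment with 28 mismatches and 18 gap positions. Within the stretch that pairs with splice sites the substitutions, counted from the 5′ end of RNU1-1, were C9G and G11A. The name table calls it a variant U1 gene, while GENCODE 29 lists it as the pseudogene RNU1-59P.

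RNU4ATAC and RNU2-2P carried large counts and differed between groups, and capitals again mark TTTNTGG. SNORD3A, a gene of U3 snoRNA, is shown with TGATGA, the letters of box C, and its last CTGA, the letters of box D, in capitals.
RNU4ATAC: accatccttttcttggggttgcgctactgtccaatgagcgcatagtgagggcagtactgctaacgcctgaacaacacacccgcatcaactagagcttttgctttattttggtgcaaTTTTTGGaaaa
RNU2-2P: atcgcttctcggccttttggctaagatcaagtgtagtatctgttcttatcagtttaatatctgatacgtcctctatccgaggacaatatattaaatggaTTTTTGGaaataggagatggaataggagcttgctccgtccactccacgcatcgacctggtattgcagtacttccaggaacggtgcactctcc
SNORD3A: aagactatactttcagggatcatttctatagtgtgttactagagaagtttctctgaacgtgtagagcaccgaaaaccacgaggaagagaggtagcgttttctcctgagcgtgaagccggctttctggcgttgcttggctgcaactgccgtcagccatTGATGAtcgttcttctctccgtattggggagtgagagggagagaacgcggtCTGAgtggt
TTTNTGG was found on the transcript strand in 11 of 12 U1 members, 2 of 3 U2 members, 0 of 5 U4 members and 1 of 2 members of the minor spliceosome, against 213 of 1900 snRNA transcripts in the annotation (11.2%). TGATGA and CTGA both occurred in 320 of 955 annotated snoRNA transcripts (33.5%). Of the 12 U1 members, 8 are identical or nearly so in sequence, so their matches are not independent. A match describes the letters only. A run of 6 or more adenines was present in 6 of the 81 members (7.41%), in 40 of the 657 identifiers with counts under the level (6.09%) and in 138 of the 1852 without counts (7.45%), with a median longest run of 4 adenines in each set.

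The members fell into 18 U6, 14 box C/D, 12 U1, 11 box H/ACA, 7 7SK-related, 5 U4, 3 U2, 3 U5, 3 U7 and 3 scaRNA identifiers and 2 of the minor spliceosome. By name, 38 were pseudogene copies, and the identifier of 7SK RNA itself, listed under the symbol 7SK, was not a member by the rule. In the annotation 22 members overlapped no other gene and 10 lay opposite another gene only. On the same strand, 17 overlapped an exon of any transcript of another gene, in part or in full, and 32 only an intron. Whether an exon contained the whole member was not checked. Most of the signal sat in a few identifiers: the 6 with most counts held 71.8% of all member counts. These 6 include the 4 SNORD3 identifiers, taken below to share counts, so the same reads may enter that share repeatedly. At the other end, 39 members had under 100 counts over the 12 libraries. CPM is per identifier and not per length, so the levels of different members are not compared.

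In 3 sets of identifiers the counts were so alike that they were taken as shared and not as independent. SNORD3A, SNORD3B-1, SNORD3B-2 and SNORD3C had between 10037 and 12539 counts in total and moved together across libraries. In their shortest transcripts, of 217 bases, the last 3 were each 99.5% identical to SNORD3A. The annotated genes span 581 to 791 bases, and the rest was not aligned. RN7SKP203 and RN7SKP255 had 2759 and 2625 counts. They were 84.8% and 83.2% identical to 7SK RNA and were not aligned to each other. The 8 U1 identifiers RNU1-1, RNU1-2, RNU1-3, RNU1-4, RNU1-27P, RNU1-28P, RNVU1-7 and RNVU1-18 had 621 to 691 counts, and all were identical to RNU1-1 except RNVU1-7, at 99.4%. How reads that fit several places were counted is not given in the sources used here, so values of these 14 identifiers are uncertain as to the copy. Sharing may reach outside the members. An identifier without a symbol had 12075 counts beside 12067 for SNORD3B-2, and another had 619 beside 621 for RNVU1-7. Counted once per set, 70 members remained.

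**Figure D1:**
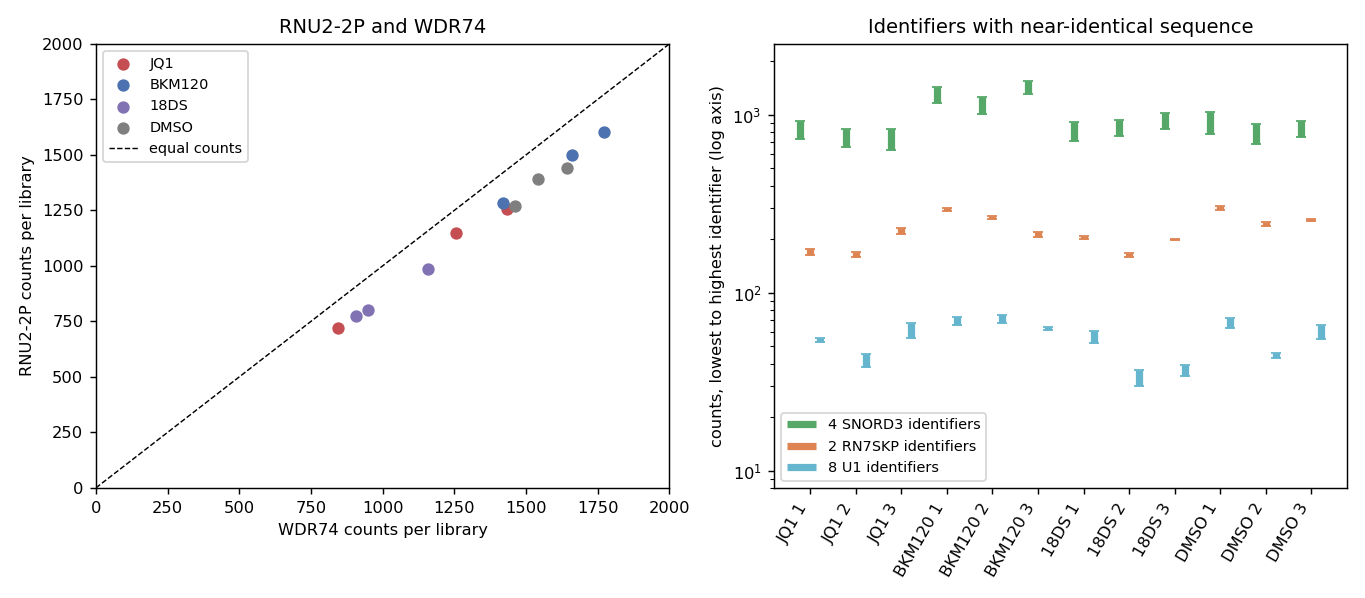
Left, counts of RNU2-2P (vertical) against counts of WDR74 (horizontal), with 1 point per library and the line of equal counts dashed. An exon of WDR74 overlaps RNU2-2P, which had 84.4% to 91.5% of the counts listed for WDR74. Right, lowest to highest count per library on a log axis within each of the 3 sets of identifiers taken to share counts. The sets are 4 SNORD3, 2 RN7SKP and 8 U1 identifiers, and the bars are short beside the distance between sets. The panel title speaks of near-identical sequence, but the 2 RN7SKP copies were not aligned to each other.

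The libraries held 5501895 to 7692013 counts (JQ1 5501895 to 7692013, BKM120 5563788 to 6883854, 18DS 5882214 to 7292895, DMSO 5940610 to 6594995). HEXIM1, a gene known to be raised by BET inhibitors, averaged 99.4 ± 11.2 CPM with JQ1, 30.5 ± 0.303 with BKM120, 118 ± 19.5 with 18DS and 32.1 ± 2.13 with DMSO (SD, n = 3 each). MYC averaged 2.54 ± 0.344 CPM with JQ1, 51.2 ± 5.15 with BKM120, 2.44 ± 1.09 with 18DS and 29.9 ± 2.79 with DMSO. The 10 plasma cell markers, such as SDC1 and IRF4, summed to 2894 to 3567 CPM per library, whereas 5 T and NK cell, 4 myeloid, and 5 epithelial and fibroblast markers summed to at most 0.719, 2.86 and 3.07 CPM. On the third principal component 18DS replicate 2 scored -26.7, against 13.7 and 9.33 for the remaining 18DS libraries. Without it, 7 members in place of 8 were called with 18DS, and the call lost was that of RNU4ATAC. Among all tested genes, 2085 of 13513 were called without that library, in place of 2769 of 13180.

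Summed over the 70 members counted once per set, the level was 608 ± 51.6 CPM with JQ1, 802 ± 96.5 CPM with BKM120, 602 ± 34.1 CPM with 18DS and 638 ± 33.0 CPM with DMSO (SD, n = 3 each). The BKM120 mean was the highest, with libraries at 837, 693 and 877 CPM against 626, 612 and 675 CPM with DMSO. Counts from bulk cultures cannot tell a change in the number of cells that make an RNA from a change in the RNA per cell. The test used throughout was edgeR's quasi-likelihood test on 13180 expressed genes with Benjamini-Hochberg adjustment over all of them. A gene is said to have risen or fallen where its adjusted p was under 0.05.

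Of the 81 members, 43 had enough counts to be tested. The other 38, among them 15 U6, 7 box C/D and 7 box H/ACA identifiers, had 38 to 90 counts each. With JQ1, 5 of the 43 differed from DMSO, or 4 of 32 when counted once per set, against 6.08% of all tested genes. RNVU1-24 and RNU5A-8P rose, where 2.63% of all tested genes did, and RNU2-2P, RN7SKP203 and RN7SKP255 fell, where 3.45% did. With BKM120, 3 of the 43 differed, or 3 of 32 once per set, against 8.21% of all tested genes. RNU4ATAC, SNORA81 and RNU4-62P rose, where 4.07% of all tested genes did, and no member fell, where 4.14% did. With 18DS, 8 of the 43 differed, or 7 of 32 once per set, against 21.0% of all tested genes. RNVU1-24, RNU4ATAC, RNU5F-1 and RNU5A-8P rose, where 9.96% of all tested genes did, and RNU2-2P, RN7SKP203, RN7SKP255 and RN7SKP176 fell, where 11.0% did. The share of members called was 11.6% with JQ1, 6.98% with BKM120 and 18.6% with 18DS, and once per set it was 12.5%, 9.38% and 21.9%. Whether the BKM120 and 18DS shares lay below or above that of all tested genes turned with the way of counting. These comparisons share the DMSO libraries, so their values stand side by side and are not independent.

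Across the 4 groups, 22 of the 43 members differed by the overall quasi-likelihood test, or 11 of 32 when counted once per set, against 26.4% of all tested genes. Beside members named above, these included the 4 SNORD3 identifiers, the 8 U1 identifiers that share counts, and RN7SKP80. The median log2 fold change over the 43 tested members was -0.10 with JQ1, 0.30 with BKM120 and 0.04 with 18DS, each against DMSO. Counted once per set it was 0.18, 0.36 and 0.20, beside medians over all tested genes of 0.0030, 0.00019 and -0.0033. The members tested had passed a filter on counts, so these medians do not describe all 81.

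**Figure D2:**
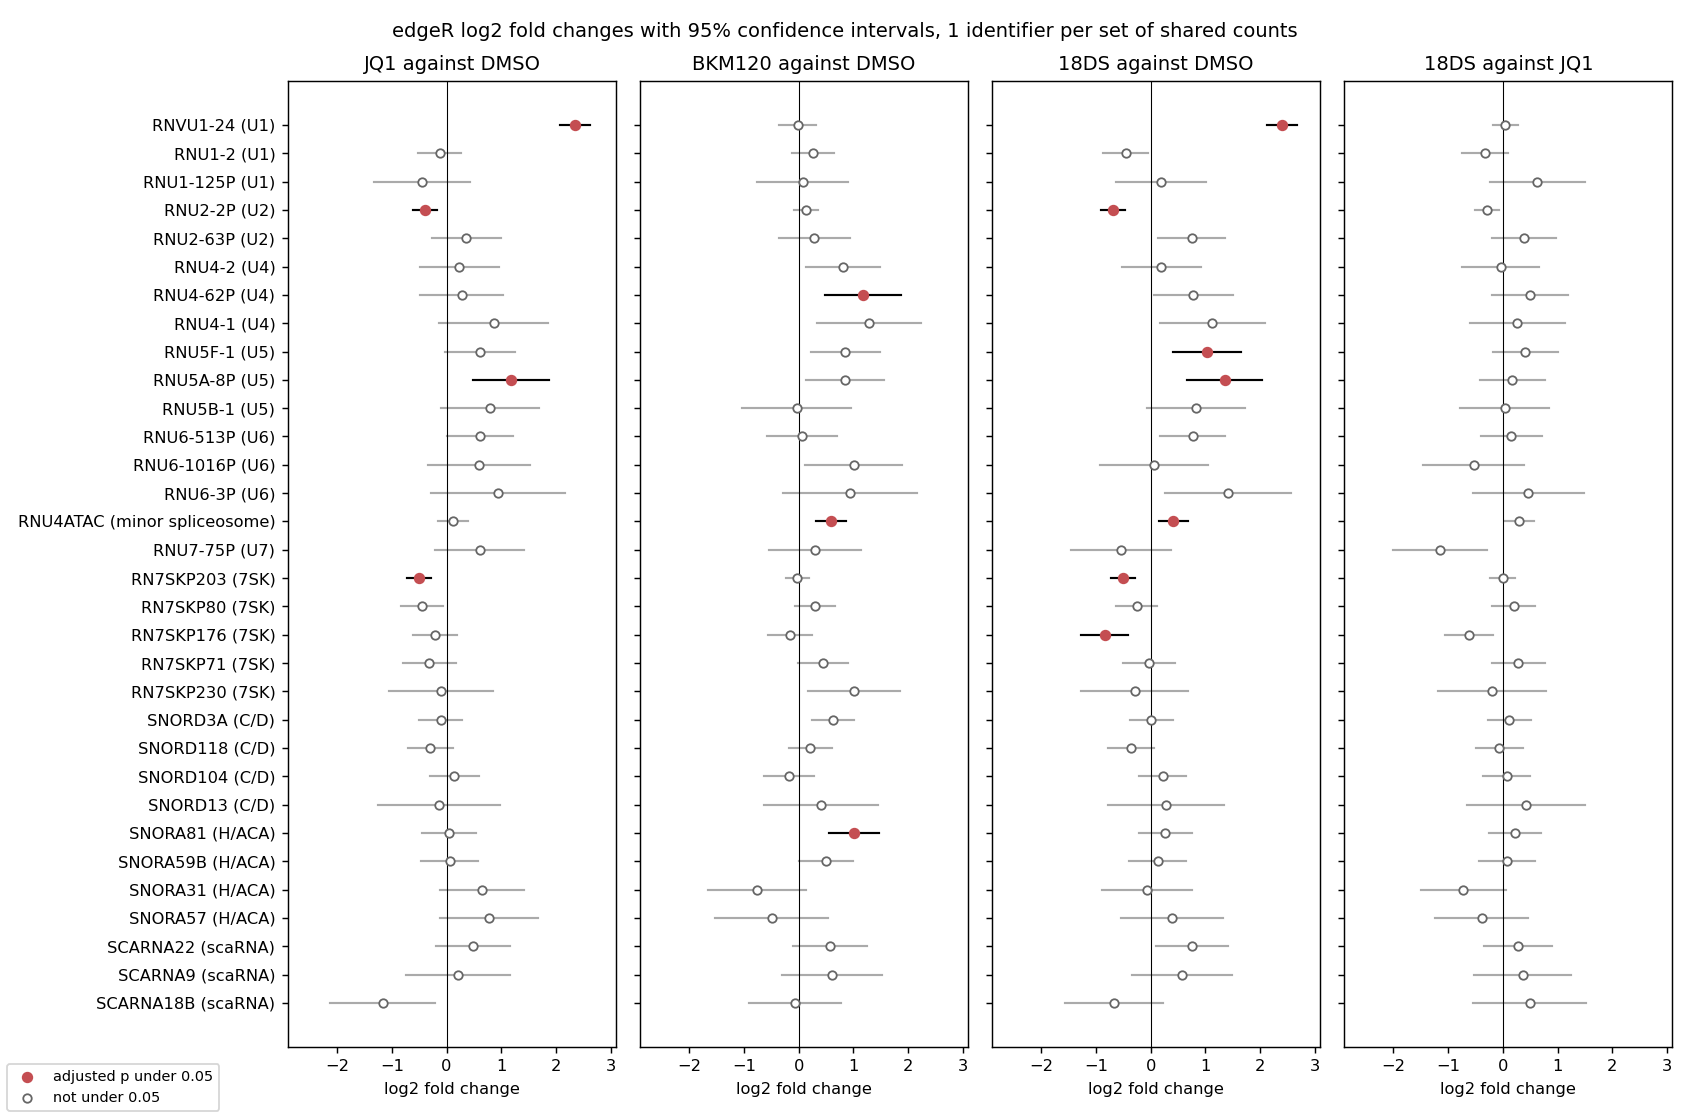
Log2 fold changes of the tested members, 1 identifier per set of shared counts, in 4 comparisons, with points for the edgeR estimate and lines for its 95% confidence interval; filled red points have an adjusted p under 0.05. RNVU1-24 stands apart at 2.35 with JQ1 and 2.40 with 18DS against DMSO, BKM120 has filled points only at positive values, and the comparison of 18DS with JQ1 has none.

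RNVU1-24, the variant U1 gene whose sequence is shown above, had the largest absolute log2 fold change of the tested members with JQ1 and with 18DS. It stood at 51.8, 51.3 and 45.2 CPM in the JQ1 libraries, 8.25, 11.5 and 8.45 CPM in the BKM120 libraries, 47.2, 51.0 and 50.2 CPM in the 18DS libraries and 10.01, 8.23 and 11.3 CPM in the DMSO libraries. Every JQ1 and 18DS library lay above every BKM120 and DMSO library, and the BKM120 and DMSO ranges overlapped. These values rest on 282 to 348 counts in each JQ1 library, 47 to 79 in each BKM120 library, 300 to 344 in each 18DS library and 50 to 67 in each DMSO library.

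Against DMSO, RNVU1-24 rose 5.11-fold with JQ1 (log2 fold change 2.35, SE 0.137, edgeR adjusted p 2.20e-15) and 5.27-fold with 18DS (log2 2.40, SE 0.137, edgeR adjusted p 5.90e-16). With BKM120 the log2 fold change was -0.02 (95% confidence interval -0.36 to 0.33, edgeR adjusted p 0.967). With each library left out in turn, the estimate stayed between 2.24 and 2.47 with JQ1 and between 2.29 and 2.51 with 18DS. In GENCODE 29 the gene overlaps no other gene. RefSeq (GRCh38.p14) places it within LOC124904581, listed as protein coding. Whether the reads came from that longer transcript was not tested.

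**Figure D3:**
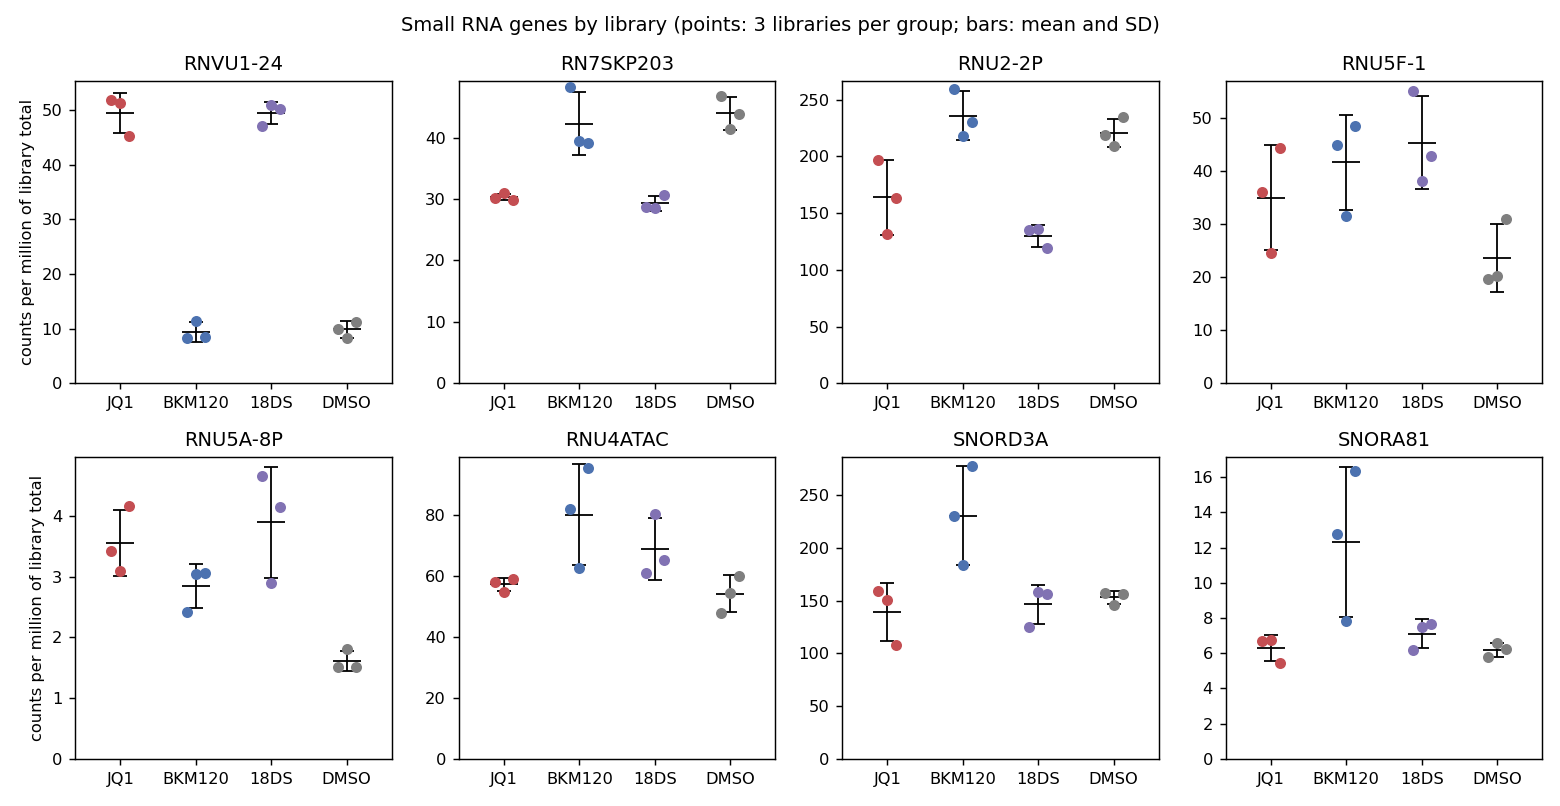
CPM of 8 members in each library (points, 3 per group), with the group mean and SD as bars and linear axes that start at 0. RNVU1-24 lies at 45.2 to 51.8 CPM in all JQ1 and 18DS libraries and at 8.23 to 11.5 CPM in all BKM120 and DMSO libraries, while SNORD3A and SNORA81 are highest in the 3 BKM120 libraries.

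The standard U1 genes passed no single comparison. RNU1-2, as one of the 8 identifiers with shared counts, stood at 9.44, 7.82 and 8.84 CPM with JQ1, 11.8, 10.9 and 11.3 CPM with BKM120, 8.36, 6.29 and 5.37 CPM with 18DS and 10.8, 7.58 and 10.8 CPM with DMSO. The BKM120 libraries were all above the DMSO libraries, and the 18DS and DMSO ranges overlapped. The 4-group test was passed by all 8 identifiers (edgeR adjusted p 0.0190 to 0.0456). With 18DS their log2 fold changes against DMSO ran from -0.49 to -0.44 (edgeR adjusted p 0.0971 to 0.117). Without the first 18DS library these became -0.67 to -0.63 and all 8 passed.

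The sum of the U1 members counted once per set, RNVU1-24 included, was 61.1 ± 4.59 CPM with JQ1, 24.1 ± 1.34 CPM with BKM120, 59.7 ± 2.31 CPM with 18DS and 22.2 ± 3.51 CPM with DMSO. RNVU1-24 alone averaged 49.4, 9.39, 49.4 and 9.84 CPM in the same order. Most of the sum with JQ1 and with 18DS was therefore this 1 member, and the sum does not describe the class. RNU1-125P, a pseudogene copy that overlaps an exon of IL32, was the other U1 member tested. It had log2 fold changes of -0.45 with JQ1, 0.08 with BKM120 and 0.18 with 18DS and passed no test.

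Among U2 members, RNU2-2P fell with JQ1 and with 18DS. It is 95.8% identical to the standard U2 gene RNU2-1, with 8 substitutions, and was counted at 197, 131 and 164 CPM with JQ1, 259, 218 and 231 CPM with BKM120, 135, 136 and 119 CPM with 18DS and 219, 209 and 234 CPM with DMSO. All JQ1 and all 18DS libraries lay under all DMSO libraries, and the first JQ1 library came closest to them.

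The log2 fold change of RNU2-2P against DMSO was -0.40 with JQ1 (SE 0.107, edgeR adjusted p 0.0265), 0.13 with BKM120 (edgeR adjusted p 0.507) and -0.69 with 18DS (SE 0.108, edgeR adjusted p 7.94e-05). The call with JQ1 was lost without JQ1 replicate 2 (-0.26, edgeR adjusted p 0.145), without JQ1 replicate 3 (edgeR adjusted p 0.098), without DMSO replicate 1 (0.0739) or DMSO replicate 3 (0.124), and when the JQ1 and DMSO groups were fitted alone (0.0896). The call with 18DS held in every setting.

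RNU2-2P lies on the minus strand of chromosome 11 and overlaps an exon of WDR74, a ribosome assembly factor. WDR74 had 16049 counts over the 12 libraries and RNU2-2P 14182. In each library RNU2-2P had 84.4% to 91.5% of the WDR74 count, so the values of both may come largely from the same reads. WDR74 had log2 fold changes of -0.40 with JQ1 (edgeR adjusted p 0.00602), 0.10 with BKM120 (edgeR adjusted p 0.580) and -0.64 with 18DS (edgeR adjusted p 1.05e-05). What was left of WDR74 after subtracting RNU2-2P was 107, 121 and 175 counts with JQ1, 169, 164 and 137 with BKM120, 172, 148 and 130 with 18DS, and 201, 192 and 151 with DMSO. RNU2-2P and WDR74 therefore cannot be told apart in these counts.

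RNU2-63P, a pseudogene copy of U2 that overlaps no gene, passed no test. Its level was 3.6, 3.45 and 3.38 CPM with JQ1, 2.43, 3.34 and 4.13 CPM with BKM120, 4.94, 4.08 and 4.14 CPM with 18DS and 1.82, 3.13 and 3.37 CPM with DMSO. The 18DS libraries lay above the DMSO libraries, with a log2 fold change of 0.75 (edgeR adjusted p 0.0737).

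Of the 3 U5 members, RNU5A-8P rose with JQ1, and RNU5A-8P and RNU5F-1 rose with 18DS. RNU5F-1, on chromosome 1 opposite an intron of ARMH1 (14 counts in all), had 36.0, 24.5 and 44.2 CPM with JQ1, 44.8, 31.5 and 48.3 CPM with BKM120, 55, 38.1 and 42.8 CPM with 18DS and 19.6, 20.1 and 31.0 CPM with DMSO. The 18DS and the BKM120 libraries all lay above the DMSO libraries, and the second JQ1 library fell inside the DMSO range. For RNU5F-1 the log2 fold change was 0.62 with JQ1 (edgeR adjusted p 0.294), 0.85 with BKM120 (edgeR adjusted p 0.101) and 1.03 with 18DS (SE 0.275, edgeR adjusted p 0.0282). With DESeq2 (adjusted p 0.0361) and limma-voom (0.00861) RNU5F-1 also passed with BKM120. The 18DS call was lost without 18DS replicate 1 (0.87, edgeR adjusted p 0.0676), 18DS replicate 3 (0.0554), DMSO replicate 1 (0.102) or DMSO replicate 2 (0.0801).

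RNU5A-8P, a pseudogene copy opposite an intron of HHAT, had 3.43, 3.09 and 4.16 CPM with JQ1, 2.43, 3.05 and 3.06 CPM with BKM120, 4.66, 2.89 and 4.14 CPM with 18DS and 1.52, 1.81 and 1.51 CPM with DMSO. Every treated library exceeded every DMSO library. It rose with JQ1 (log2 1.18, SE 0.341, edgeR adjusted p 0.0297) and with 18DS (log2 1.35, SE 0.335, edgeR adjusted p 0.00333), and the value with BKM120 was 0.85 (edgeR adjusted p 0.134). The 18DS call held in every setting. The JQ1 call was lost with DESeq2 (adjusted p 0.0741), with no filter on low counts (0.0699), and without JQ1 replicate 1 or 3 or any 1 of the DMSO libraries (0.0635 to 0.164). RNU5B-1, a U5 gene known to be expressed, had a log2 fold change of 0.80 with JQ1, -0.04 with BKM120 and 0.83 with 18DS and passed no test.

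Of 3 tested U4 members, RNU4-62P rose with BKM120. RNU4-62P, a pseudogene copy in an intron of HCLS1 and 75.5% identical to RNU4-2, had 1.37, 2.36 and 2.86 CPM with JQ1, 4.53, 3.92 and 4.13 CPM with BKM120, 3.84, 2.89 and 2.45 CPM with 18DS and 1.36, 1.98 and 2.36 CPM with DMSO. The BKM120 libraries lay above all libraries of the other groups. The longest run of adenines in RNU4-62P was 14 bases, and whether the primer bound there was not tested. Its log2 fold change with BKM120 was 1.18 (SE 0.342, edgeR adjusted p 0.0265), beside -0.03 for its host gene HCLS1. The call was lost without BKM120 replicate 1 (edgeR adjusted p 0.0952) or 3 (0.0741) and without DMSO replicate 1 (0.152) or 2 (0.0630).

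The U4 genes RNU4-2 and RNU4-1, 97.2% identical to each other, passed no test. With BKM120 their log2 fold changes were 0.81 (edgeR adjusted p 0.128) and 1.28 (edgeR adjusted p 0.0835), and with 18DS 0.19 and 1.13. RNU4-2 had 4.85, 3.34 and 3.77 CPM with BKM120 and 1.82, 1.98 and 3.20 CPM with DMSO, so that all BKM120 libraries were higher.

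RNU4ATAC, the U4atac snRNA of the minor spliceosome, rose with BKM120 and with 18DS. Its level was 58.2, 54.9 and 58.9 CPM with JQ1, 82.2, 62.6 and 95.6 CPM with BKM120, 60.9, 80.2 and 65.2 CPM with 18DS and 47.9, 54.5 and 60.1 CPM with DMSO. The BKM120 and 18DS libraries all lay above the DMSO libraries, by little in the lowest of each, and the JQ1 libraries lay within the DMSO range. The log2 fold change was 0.11 with JQ1 (edgeR adjusted p 0.733), 0.59 with BKM120 (SE 0.129, edgeR adjusted p 0.00592) and 0.41 with 18DS (SE 0.130, edgeR adjusted p 0.0271).

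The BKM120 call of RNU4ATAC held in every setting, and was 0.45 (edgeR adjusted p 0.0320) without BKM120 replicate 3. The 18DS call was lost when counts were scaled by library totals (0.34, edgeR adjusted p 0.0652), without 18DS replicate 2 (0.29, edgeR adjusted p 0.112), and without DMSO replicate 1 (0.109) or 2 (0.0675). CLASP1, whose intron lies opposite, had log2 fold changes of 0.00 with JQ1, 0.03 with BKM120 and 0.19 with 18DS and passed no test.

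U6 and U7 identifiers were mostly at the edge of detection. The 18 U6 members, 16 of them pseudogene copies by name, summed to 14.9, 19.8 and 18.5 CPM with JQ1, 18.4, 17.0 and 19.8 CPM with BKM120, 17.4, 22.4 and 18.7 CPM with 18DS and 14.7, 14.5 and 13.3 CPM with DMSO. Every treated library was above the DMSO libraries in this sum, the first JQ1 library by little. Some U6 members reached the level only with a treated group included, and another only with the DMSO libraries included. The difference in the sum may therefore be in part fixed by the choice of members. Only 3 U6 members were tested and none passed. The nearest was RNU6-513P, which overlaps an exon of RRP7BP, with a log2 fold change of 0.77 with 18DS (edgeR adjusted p 0.0572).

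Of the 38 members with too few counts for the test, 4 passed under settings that let them in, such as a looser filter on low counts. They are named here after their values were seen. With no filter on low counts, 1225 of 30582 tested genes were called with BKM120 and 2638 with 18DS. With a filter on mean CPM it was 1061 and 2741 of 15234. The 4 were picked over several settings and are not read as more or fewer than these shares. RNU7-45P had 4, 2 and 4 counts with JQ1, 8, 13 and 20 with BKM120, 4, 7 and 5 with 18DS and 4, 3 and 1 with DMSO. RNU6-26P had 1, 1 and 4 counts with JQ1, 9, 6 and 4 with BKM120, 5, 6 and 2 with 18DS and 0, 2 and 0 with DMSO. RNU6-9, a U6 gene known to be expressed, had 9, 8 and 12 counts with 18DS and 1, 3 and 2 with DMSO, and RNU6-15P had 8, 8 and 12 with 18DS and 2, 3 and 2 with DMSO. The BKM120 libraries lay above the DMSO libraries for RNU7-45P and RNU6-26P, and the 18DS libraries did for RNU6-9 and RNU6-15P, all on few counts. The 4 were picked because they passed, so these gaps restate the choice and support nothing. RNU6-26P would not have been a member without the BKM120 or without the 18DS libraries (mean 0.357 and 0.472 CPM over the other groups), so its difference is in part fixed by the choice and supports nothing. CFLAR, whose intron holds RNU7-45P on the same strand, rose with BKM120 (log2 fold change 0.65, edgeR adjusted p 3.27e-05). DCBLD2, whose intron holds RNU6-26P on the same strand, rose with BKM120 (0.60, edgeR adjusted p 0.00257), as did ST3GAL6 on the opposite strand (1.37, edgeR adjusted p 1.07e-12). The part of these genes in the counts of the small RNAs was not tested. The U7 member with enough counts, RNU7-75P, had log2 fold changes of 0.60 with JQ1, 0.30 with BKM120 and -0.54 with 18DS and passed no test.

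**Figure D4:**
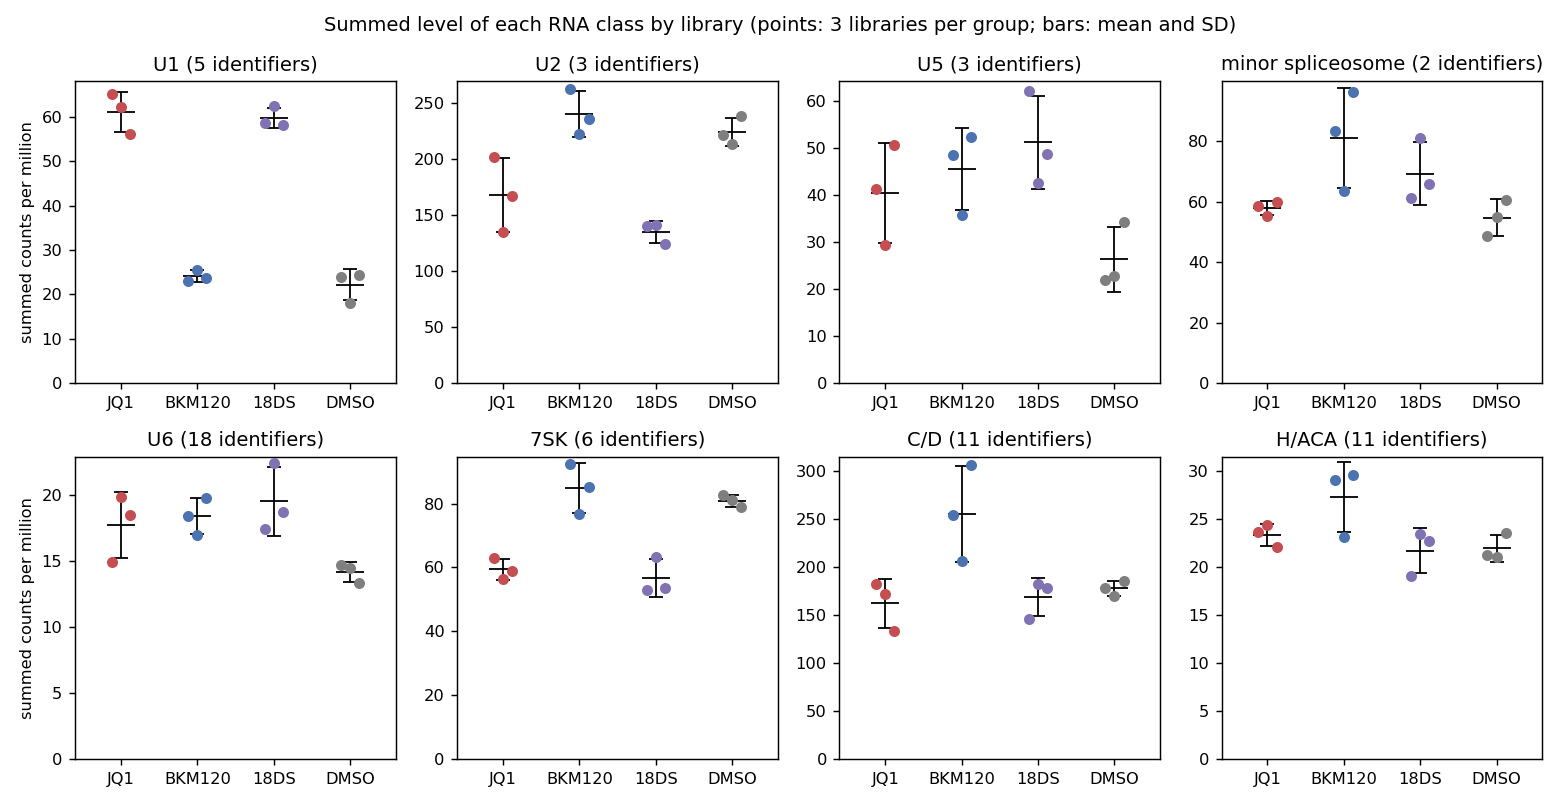
Summed CPM of 8 classes of member in each library (points, 3 per group), with 1 identifier per set of shared counts, and the group mean and SD as bars. The U1 sum is 61.1 CPM with JQ1 and 59.7 CPM with 18DS against 22.2 CPM with DMSO. Of these sums, RNVU1-24 alone makes up 49.4, 49.4 and 9.84 CPM. The 7SK-related sum is 59.5 CPM with JQ1 and 56.6 CPM with 18DS against 80.9 CPM with DMSO. The box C/D sum is highest with BKM120 at 255 CPM against 178 CPM with DMSO.

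Of 6 tested 7SK-related copies, 2 fell with JQ1 and 3 with 18DS, among them RN7SKP203 and RN7SKP255 with each compound, which stand for 1 signal. RN7SKP203, which shares its counts with RN7SKP255 and is 84.8% identical to 7SK RNA, had 30.2, 30.9 and 29.9 CPM with JQ1, 48.2, 39.4 and 39.2 CPM with BKM120, 28.7, 28.6 and 30.7 CPM with 18DS and 46.7, 41.3 and 43.8 CPM with DMSO. The JQ1 and 18DS libraries were tightly grouped and all under the DMSO libraries, while the BKM120 and DMSO ranges overlapped. On the log2 scale the fold change was -0.51 with JQ1 (SE 0.107, edgeR adjusted p 0.00190), -0.02 with BKM120 (edgeR adjusted p 0.935) and -0.51 with 18DS (SE 0.107, edgeR adjusted p 0.000589). For RN7SKP255 the values were -0.54 with JQ1, -0.02 with BKM120 and -0.49 with 18DS, and all calls of both copies held in every setting.

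The identifier of 7SK RNA itself also fell with JQ1 and with 18DS. It had 57.3, 56.0 and 57.2 CPM with JQ1, 88.0, 71.6 and 81.6 CPM with BKM120, 50.0, 62.9 and 52.9 CPM with 18DS and 83.1, 75.6 and 77.1 CPM with DMSO. All JQ1 and 18DS libraries lay under all DMSO libraries. It fell by 0.44 on the log2 scale with JQ1 (edgeR adjusted p 0.00254) and with 18DS (edgeR adjusted p 0.000919) and had 0.07 with BKM120 (edgeR adjusted p 0.728). Whether the copies and 7SK RNA share reads was not tested.

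RN7SKP176, which overlaps an exon of PLCG2, fell with 18DS. It had 9.09, 11.1 and 10.3 CPM with JQ1, 11.0, 11.3 and 8.99 CPM with BKM120, 6.31, 8.84 and 4.14 CPM with 18DS and 14.1, 11.4 and 10.6 CPM with DMSO. Only the 18DS libraries lay wholly under the DMSO range. With 18DS its log2 fold change was -0.84 (SE 0.211, edgeR adjusted p 0.00349), which became -0.61 (edgeR adjusted p 0.0507) without 18DS replicate 3, and with JQ1 it was -0.22 and with BKM120 -0.16. PLCG2 had a log2 fold change of 0.30 with 18DS and was not called.

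RN7SKP80 passed the 4-group test (edgeR adjusted p 0.0102) but no single comparison, with log2 fold changes of -0.45 with JQ1, 0.30 with BKM120 and -0.26 with 18DS. Its JQ1 libraries, at 11.8, 6.18 and 9.88 CPM, lay below and its BKM120 libraries, at 16.7, 13.8 and 16.9 CPM, above the DMSO libraries at 12.3, 13.7 and 13.3 CPM. RN7SKP71 and RN7SKP230 passed no test. All 6 tested 7SK-related members had a negative log2 fold change with JQ1 and with 18DS, from -0.54 to -0.10 and from -0.84 to -0.03. The 7SK-related sum, once per set, was 59.5 ± 3.26 CPM with JQ1, 84.9 ± 7.77 CPM with BKM120, 56.6 ± 5.89 CPM with 18DS and 80.9 ± 1.92 CPM with DMSO.

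Box C/D members were dominated by U3 snoRNA, which takes part in processing the precursor of 18S ribosomal RNA. SNORD3A had 159, 151 and 108 CPM with JQ1, 230, 184 and 278 CPM with BKM120, 125, 158 and 157 CPM with 18DS and 158, 146 and 156 CPM with DMSO. The 3 BKM120 libraries lay above all others and were widely spread, and the 18DS, JQ1 and DMSO ranges overlapped. With BKM120 the log2 fold change was 0.62 (SE 0.173, edgeR adjusted p 0.0567), just short of the threshold, and the other 3 SNORD3 identifiers had 0.64 to 0.70 (edgeR adjusted p 0.0614 to 0.0699). All 4 passed the 4-group test (edgeR adjusted p 0.0274 to 0.0439). SNORD3A passed in the BKM120 comparison with DESeq2 (adjusted p 0.000502), with limma-voom (0.00436) and without BKM120 replicate 2 (0.76, edgeR adjusted p 0.00858). With JQ1 and 18DS the log2 fold changes of SNORD3A were -0.11 and 0.01.

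Other box C/D members did not pass a test. SNORD118, the U8 snoRNA that acts in maturing the large ribosomal subunit RNAs, overlaps an exon of TMEM107. Its log2 fold changes were -0.30 with JQ1, 0.21 with BKM120 and -0.36 with 18DS. SNORD104, in an intron of SNHG25, had 0.14, -0.18 and 0.22. SNORD13, which acts in small subunit RNA processing, had -0.15, 0.41 and 0.28, each in the same order. Of the 14 box C/D members, 7 were too low to test.

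SNORA81, a box H/ACA snoRNA that overlaps an exon of EIF4A2 in the annotation, rose with BKM120. It had 6.69, 6.72 and 5.46 CPM with JQ1, 12.8, 7.84 and 16.4 CPM with BKM120, 6.17, 7.48 and 7.67 CPM with 18DS and 5.76, 6.59 and 6.23 CPM with DMSO. The BKM120 libraries were all higher than the DMSO libraries, one of them by little. For SNORA81 the log2 fold change was 0.04 with JQ1, 1.01 with BKM120 (SE 0.222, edgeR adjusted p 0.00288) and 0.27 with 18DS. Without BKM120 replicate 3 the BKM120 value was 0.76 (edgeR adjusted p 0.0652). EIF4A2, a translation factor gene, was at 95.8 ± 1.52 CPM with BKM120 and 105 ± 4.79 CPM with DMSO (log2 fold change -0.09, edgeR adjusted p 0.583).

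The other box H/ACA members tested, SNORA59B, SNORA31 and SNORA57, passed no test, with log2 fold changes with BKM120 of 0.50, -0.76 and -0.49. The box H/ACA sum was 23.4 ± 1.16 CPM with JQ1, 27.3 ± 3.64 CPM with BKM120, 21.7 ± 2.35 CPM with 18DS and 22 ± 1.39 CPM with DMSO. None of the 3 scaRNAs passed a test. SCARNA22, in an intron of NSD2, had a log2 fold change of 0.76 with 18DS (edgeR adjusted p 0.0939), beside a rise of NSD2 of 0.42 (edgeR adjusted p 1.96e-05).

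Of 18 pairs of a member and a gene on the same strand that overlaps it, both tested, the member was called in 1 with JQ1, 2 with BKM120 and 2 with 18DS. The other gene was called in 3, 0 and 6, and both were called in 1, 0 and 1, which was RNU2-2P with WDR74 each time. Among all tested genes 6.08%, 8.21% and 21.0% were called. CROCC and RRP7BP each stand in 2 of these pairs, and the 2 members that lie in CROCC share counts. Of 8 such pairs on opposite strands, the member was called in 0 with JQ1, 1 with BKM120 and 1 with 18DS, which was RNU4ATAC, and the other gene in 0, 0 and 1, with both called in none. SERHL2 stands in 2 of these, and the same shares of all tested genes stand beside them. RNY1, RNY4 and TERC, other short noncoding RNAs outside the families named, averaged 4.92, 7.81 and 1.52 CPM with JQ1, 6.38, 9.46 and 1.61 CPM with BKM120, 6.73, 8.76 and 1.32 CPM with 18DS and 4.16, 8.66 and 0.805 CPM with DMSO. Mitochondrial transcripts took 6.87%, 7.35% and 7.20% of counts with JQ1, BKM120 and 18DS, against 6.71% with DMSO.

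JQ1 and 18DS formed the 1 pair of compounds given at the same dose and time, so this was the 1 pair compared. None of the 43 tested members was called between 18DS and JQ1 with edgeR, against 4.16% of all tested genes, 2.37% higher and 1.78% lower. DESeq2 and limma-voom called 0 as well, beside 504 and 452 of 13180 tested genes. Of the 43 members, 4 had an unadjusted edgeR p under 0.05: RNU2-2P, RNU4ATAC, RN7SKP176 and RNU7-75P. Of all 13180 tested genes, 2541 did, so these 4 are no more than the share of all genes. For RNVU1-24 the difference of 18DS from JQ1 was 0.05 on the log2 scale (95% confidence interval -0.18 to 0.27, edgeR adjusted p 0.875), and for RN7SKP203 it was -0.01 (-0.23 to 0.22, edgeR adjusted p 0.985).

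For other members the intervals were wider or lay off 0. RNU2-2P differed between 18DS and JQ1 by -0.29 on the log2 scale (95% confidence interval -0.52 to -0.06, edgeR adjusted p 0.136). It passed without JQ1 replicate 2 (-0.43, edgeR adjusted p 0.0256) and with no filter on low counts (-0.28, edgeR adjusted p 0.0368). RNU4ATAC differed by 0.30 (0.03 to 0.57, edgeR adjusted p 0.202). RN7SKP176 differed by -0.63 (-1.06 to -0.19, edgeR adjusted p 0.0890), and passed without 18DS replicate 2 (-0.89, edgeR adjusted p 0.0339). RNU5F-1 differed by 0.41 (-0.19 to 1.00). These intervals do not show that the compounds acted alike on these genes. BKM120 was given at another dose, 1 µM, and is set beside them without a comparison.

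Between groups whose libraries did not overlap, the counts over the 70 members counted once per set were 8 higher and 8 lower with JQ1 than with DMSO, against 9.79% higher and 15.2% lower among all tested genes. With BKM120 there were 16 higher and 5 lower than with DMSO, against 11.0% and 17.5%. With 18DS there were 12 higher and 4 lower than with DMSO, against 12.5% and 23.7%. With 18DS against JQ1 there were 4 higher and 3 lower, against 9.04% and 15.8%. These counts include members too low to test, whereas the shares are of genes that passed a filter on counts. For some of these members the mean fell below the level when a group was left out. Their differences may be in part fixed by the choice. The counts and shares therefore cannot show whether members differed more often than other genes.

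The proteins that make, trim and carry these RNAs were counted in lists. Among all tested genes, 2.63% rose and 3.45% fell with JQ1, 4.07% and 4.14% with BKM120 and 9.96% and 11.0% with 18DS, and the counts of each list stand beside these shares with no test of the list. Of 9 genes of the 7SK particle and P-TEFb, 2 rose and 1 fell with JQ1, 1 fell with BKM120, and 2 rose and 2 fell with 18DS. HEXIM1, the inhibitor subunit, had log2 fold changes of 1.66 with JQ1 and 1.95 with 18DS, and LARP7, which binds the 3′ end of 7SK RNA, had -0.36 and -0.63. DDX21, a helicase, had -0.47 with BKM120. Between 18DS and JQ1, CCNT2, a cyclin of P-TEFb, had -0.71 and MEPCE, which caps 7SK RNA, 0.41, the 2 calls of that list.

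Of 17 genes of snRNA transcription, none rose in any comparison with DMSO. COIL, the coilin of Cajal bodies, had a log2 fold change of -0.64 with JQ1, the 1 call there, -0.72 with BKM120 and -1.30 with 18DS. ELL, a subunit of the elongation complex that acts on snRNA genes, had -0.70 with BKM120, where 2 genes fell, and -0.85 with 18DS, where 6 fell. Between 18DS and JQ1 they had -0.66 and -0.56, the 2 calls there. The median over the list was -0.12 with JQ1, -0.21 with BKM120 and -0.33 with 18DS.

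In the list of 18 genes of Integrator, the complex that cleaves snRNA 3′ ends, 1 rose (INTS6, 0.78) and 1 fell (INTS13, -0.46) with JQ1, 1 fell with BKM120 (NABP1, -0.53), and 1 rose (INTS6, 0.65) and 3 fell (among them NABP1, -0.44) with 18DS. Of 30 genes for snRNA capping, export, assembly and end processing, 5 fell with JQ1, 4 with BKM120 and 5 with 18DS and none rose, where 3.45%, 4.14% and 11.0% of all tested genes fell. GEMIN4, part of the SMN complex that loads Sm proteins, had log2 fold changes of -0.58 with JQ1, -0.71 with BKM120 and -1.20 with 18DS, and -0.62 between 18DS and JQ1. LSM11 of the U7 particle had -1.21 with JQ1, LSM2 had -0.34 with BKM120, and PHAX, the snRNA export adaptor, had -0.70 with 18DS.

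Of 21 Sm and snRNP proteins, none was called with JQ1, 2 rose and 2 fell with BKM120 (PRPF8 at 0.29 and SNRPG at -0.43 among them), and 2 rose and 1 fell with 18DS (SNRPD2 at 0.41 and PRPF6 at 0.30 among them). Of 10 tested genes of box C/D assembly, 1 fell with JQ1 (NUFIP1, -0.67), none was called with BKM120 and 1 rose and 2 fell with 18DS (NUFIP1, -1.09; NOP58, a core protein, -0.43). Of 7 box H/ACA proteins, DKC1, the pseudouridine synthase, fell with JQ1 (-0.30), none was called with BKM120, and 3 fell with 18DS (NAF1, -0.85, and DKC1, -0.31, among them). Of 23 genes of the RNA exosome and 3′ trimming, 1 rose and 1 fell with JQ1, 3 fell with BKM120, and 1 rose and 7 fell with 18DS. TENT4B, the polymerase that adds adenines to RNAs bound for the exosome, had log2 fold changes of 0.76 with JQ1 and 0.89 with 18DS, and EXOSC9, an exosome subunit, had -0.46 and -0.64; EXOSC6 and EXOSC4 had -0.42 and -0.55 with BKM120. The part of these genes in the levels of the small RNAs was not tested.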

How the data were processed

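The authors sequenced 3′ mRNA libraries (QuantSeq, NextSeq, single-end) from 12 cultures of OPM2 cells, per the labels, and deposited raw counts per Ensembl gene as whole numbers without normalization. The submitters' processing notes name the build hg19, the aligner HISAT2 2.1.0, counting with featureCounts from Subread, and bcl2fastq 2.17.1.14, cutadapt 1.7, SAMtools 1.9, FastQC 0.11.5 and limma. Which annotation release and strand option were used, and how reads fitting several places or genes were treated, is not given in these sources. The table has 63152 rows, and a name table gave 39560 of them a symbol.

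Counts were tested with edgeR 4.0.16 in R 4.3.3 (TMM factors 0.971 to 1.03, filterByExpr with a minimum count of 10 and minimum total of 15, robust quasi-likelihood fit of 13180 genes in all 4 groups, Benjamini-Hochberg adjustment). CPM were computed on library totals. Alternatives were DESeq2 1.42.0, limma-voom 3.58.1, other scalings and filters, each library left out, and a replicate block. The fit was tested on simulated data. Over all tested genes, same-numbered libraries did not deviate together (mean correlation of deviations 0.0036, range -0.128 to 0.0919), and the main fit used no pairing. This does not exclude pairing in single genes. The labels call the libraries biological triplicates, and the tests set differences between groups against the spread between them.

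Members of the same RNA class with at least 100 counts each were compared in pairs. Pairs were taken to share counts where their totals differed by at most 15% and their log CPM correlated above 0.97. Such pairs were chained into sets, so members of a set could differ by more, as SNORD3A and SNORD3B-1 did. Positions and sequences come from GENCODE 29 (GRCh38), another build than the counts, so no coordinates are given. Members named with all values were those called in any test, the 6 with the highest CPM and RNVU1-24; from each protein list at most 2 called genes per comparison with the smallest adjusted p, and genes overlapping those members, were named. The members, lists and tests were chosen with earlier results of these data known. Some sequences are not reported here.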

Additional observations from a re-analysis of the deposited data

How the results depend on the processing

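Scaling choices left the number of members called nearly as reported. Against 3 members called with BKM120, DESeq2 called 7, limma-voom 8, the fit with no filter on low counts 9, a filter on mean CPM 5, the fit without the robust option 8, and the BKM120 and DMSO groups fitted alone 8, each time with all called members higher. In all of these but the filter on mean CPM, the calls included the 4 SNORD3 identifiers, which stand for 1 signal. Of the 13180 tested genes, 1082 were called with BKM120 as reported, 905 with DESeq2, 1074 with limma-voom and 1135 without the robust option. It was 1225 of 30582 with no filter, 1061 of 15234 with the mean CPM filter and 1241 of 12518 with the 2 groups alone. With no filter, 1 member differed between 18DS and JQ1 where none had (RNU2-2P, log2 -0.28, edgeR adjusted p 0.0368), beside 786 of 30582 genes. With each library left out in turn, 3 to 5 members were called with JQ1, 1 to 9 with BKM120, 6 to 15 with 18DS, 0 to 1 between 18DS and JQ1 and 10 to 23 across the 4 groups. Over the same fits, 504 to 1021 of all tested genes were called with JQ1, 482 to 1564 with BKM120 and 1909 to 3026 with 18DS. Between 18DS and JQ1 it was 105 to 1027, and across the 4 groups 2813 to 3793, of 13420 to 13543 genes tested. The count of members with BKM120 was 1 without BKM120 replicate 3, 9 without BKM120 replicate 2 and 8 without JQ1 replicate 3, and the 15 with 18DS came without 18DS replicate 1. The 15 included the 8 U1 identifiers that share counts, and the 9 and the 8 included the 4 SNORD3 identifiers. Each of these sets stands for 1 signal.

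With the replicate number as a block, 6 members were called with JQ1, 4 with BKM120, 8 with 18DS, 0 between 18DS and JQ1 and 20 across the 4 groups. Of 13180 tested genes, 743, 1042, 2667, 522 and 3324 were called with the block, in the same order. The block added RNU5F-1 with JQ1 (log2 0.60, edgeR adjusted p 0.0128) and with BKM120 (0.85, 4.72e-04). No named member reversed direction in a call; of the values recomputed, 1939 stayed on the same side of the threshold, 54 newly passed and 26 no longer passed. The causes of these shifts were not tested. Depth limits the 38 untested members, each with at most 90 counts in all.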
